A study of Mus musculus with 10 samples.

Results

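Cells that spread and pull on a substrate are known to raise a small set of genes through the coactivator YAP and through serum response factor (SRF), and 10 of these genes are described here in male mouse embryonic stem cells (mESCs) grown in suspension or on gelatin. They are Ctgf, Cyr61, Ankrd1 and Amotl2, which are textbook YAP targets, the cytoplasmic actins Actb and Actg1, the actin-binding proteins Tagln, Tagln2 and Tpm1, and the myosin light chain Myl9. They were taken by gene symbol from a table of 25965 features, and all 10 had a row.

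In the Hippo pathway, the kinases MST and LATS phosphorylate YAP and its relative TAZ and hold them in the cytoplasm. When cells flatten on a stiff surface, YAP and TAZ enter the nucleus and bind TEAD factors at their target genes. SRF is governed by actin itself, because its cofactors of the MRTF family (Mkl1 and Mkl2) are bound by actin monomers and are released as filaments assemble. SRF targets include actins and the proteins that bind and contract filaments, so the pathway is known for matching actin supply to actin assembly. Naive mESCs in 2i medium form compact, domed colonies with few stress fibres.

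The libraries came from 2 independent C57/Bl6 lines, each at passage 0 (p0) and then split between both methods for 10 and 20 passages (p10 and p20), which gave 10 libraries in 5 groups of 2. The lines were themselves derived in Keniry2022 conditions, and all groups were kept in 2i medium with LIF and the same antimicrobials. Keniry2022 cells (New or Off in the labels) were passaged daily in suspension in plates without tissue culture treatment, and Mulas2019 cells (Old or On) were attached to gelatin in tissue culture-treated plates, at a lower plating density, in smaller volumes of medium and with less frequent passaging. Substrate, density, volume and passaging interval therefore changed together, and their parts cannot be told apart. The 4 libraries of a method are 2 lines at 2 passages, so p-values measure the spread between these libraries and not between independent derivations.

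Library totals were 24053996 to 30236823 reads, of which 85.81% to 88.62% fell in features. The p0 pair was the least alike: the SD of the log2 difference between replicates over 11561 features was 0.611 at p0 and 0.23 to 0.265 in the other groups. Reads of Y-linked genes were 13 to 132 in replicate 1 and 4578 to 8140 in replicate 2 of the other 4 groups. They were 6659 in replicate 1 and 48 in replicate 2 of p20 Keniry2022, so the numbers of that pair go against those of the rest. The study reports, from DNA sequencing, that a line had lost its Y chromosome while it was being derived, ahead of the compared cultures. The replicates of every group thus differed in Y-linked reads as well as in line, and these reads mark the line. Among markers, 8 of 8 mESC genes were detected well enough to be tested, as against 0 of 11 fibroblast and feeder genes, whose summed level was 1.09 to 3.11 RPKM (reads per kilobase of exon, scaled to the library total) with Postn and S100a4 at 0 reads in every library. Of 11 endoderm, 10 trophoblast and 7 smooth muscle markers, 3, 4 and 2 were tested.

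Promoter letters are shown for the genes with a promoter sequence, beginning with those whose RNA differed between the methods. No link between these letters and the RNA levels was tested. Promoter sequences of 250 bases before the start of the gene in RefSeq were used (GRCm38.p6), in which 7 of the 10 genes were found, all but Actb, Ctgf and Tagln. Each was searched on both strands for the CArG box that SRF binds and for GGAATG, the core of the motif that TEAD factors bind. Capitals mark the matches, and a match of the core on the opposite strand appears as CATTCC. The whole window is shown for Actg1 (chr11:120348496-120348745, minus strand) and Tagln2 (chr1:172499996-172500245, plus strand).
Actg1: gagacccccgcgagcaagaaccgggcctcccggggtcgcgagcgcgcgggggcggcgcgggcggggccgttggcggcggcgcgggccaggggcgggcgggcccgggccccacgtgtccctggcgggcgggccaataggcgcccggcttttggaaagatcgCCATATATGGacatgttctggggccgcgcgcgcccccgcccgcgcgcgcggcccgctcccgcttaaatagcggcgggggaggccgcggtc
Tagln2: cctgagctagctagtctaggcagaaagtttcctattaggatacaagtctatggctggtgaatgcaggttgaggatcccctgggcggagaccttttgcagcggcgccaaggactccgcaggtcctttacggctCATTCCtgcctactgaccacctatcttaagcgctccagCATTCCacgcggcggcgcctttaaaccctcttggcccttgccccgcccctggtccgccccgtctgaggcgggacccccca
The CArG box of Actg1 began 90 bases before the RefSeq start, and the CATTCC copies of Tagln2 began 118 and 80 bases before it. Of the other 5 genes with a window, only the match and its flanks are shown, for Myl9 (chr2:156775283-156775332, plus strand, a CArG box), Cyr61 (chr3:145650063-145650108, minus strand), Ankrd1 (chr19:36120029-36120074 and chr19:36119942-36119987, minus strand), Amotl2 (chr9:102717719-102717764, plus strand) and Tpm1 (chr9:67049244-67049289, minus strand).
Myl9: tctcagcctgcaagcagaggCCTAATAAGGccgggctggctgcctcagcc
Cyr61: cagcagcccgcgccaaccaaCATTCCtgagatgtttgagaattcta
Ankrd1, 210 bases before the RefSeq start: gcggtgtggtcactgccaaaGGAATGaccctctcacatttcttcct
Ankrd1, 123 bases before the RefSeq start: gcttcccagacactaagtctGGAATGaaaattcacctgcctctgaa
Amotl2: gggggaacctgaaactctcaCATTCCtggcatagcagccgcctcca
Tpm1: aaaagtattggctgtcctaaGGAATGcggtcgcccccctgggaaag
These began 161 bases (Myl9), 103 bases (Cyr61), 65 bases (Amotl2) and 56 bases (Tpm1) before the RefSeq start. That start is not always the one of the deposited feature: by the deposited coordinates given with each gene, the matches of Tagln2, Amotl2 and Tpm1 lie inside the feature and those of Actg1, Myl9, Cyr61 and Ankrd1 before it. A CArG box was thus found in 2 of 7 windows and the GGAATG core in the other 5, and no window held both. Over all 27025 promoters of the same length, 1.4% held a CArG box and 12.6% held GGAATG. These are matches of letters, not sites shown to be bound.

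The 10 genes spanned the range of the transcriptome. Levels were the deposited log2 RPKM values, in which 1 unit is a 2-fold difference and which can be compared between genes because they are per length. Actb was among the most abundant features, at ranks 20 to 56 of 25965 across libraries. Tagln2, Actg1, Amotl2, Ctgf, Tpm1 and Cyr61 were moderately expressed, at ranks 2325 to 6870. Myl9 and Tagln were low, at ranks 10282 to 13969, and Ankrd1 was close to undetected, with 0 to 3 reads per library. Tagln and Myl9, which are typical of contractile cells, were thus low, while Tagln2, a widely expressed relative of Tagln, was not.

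**Figure D1:**
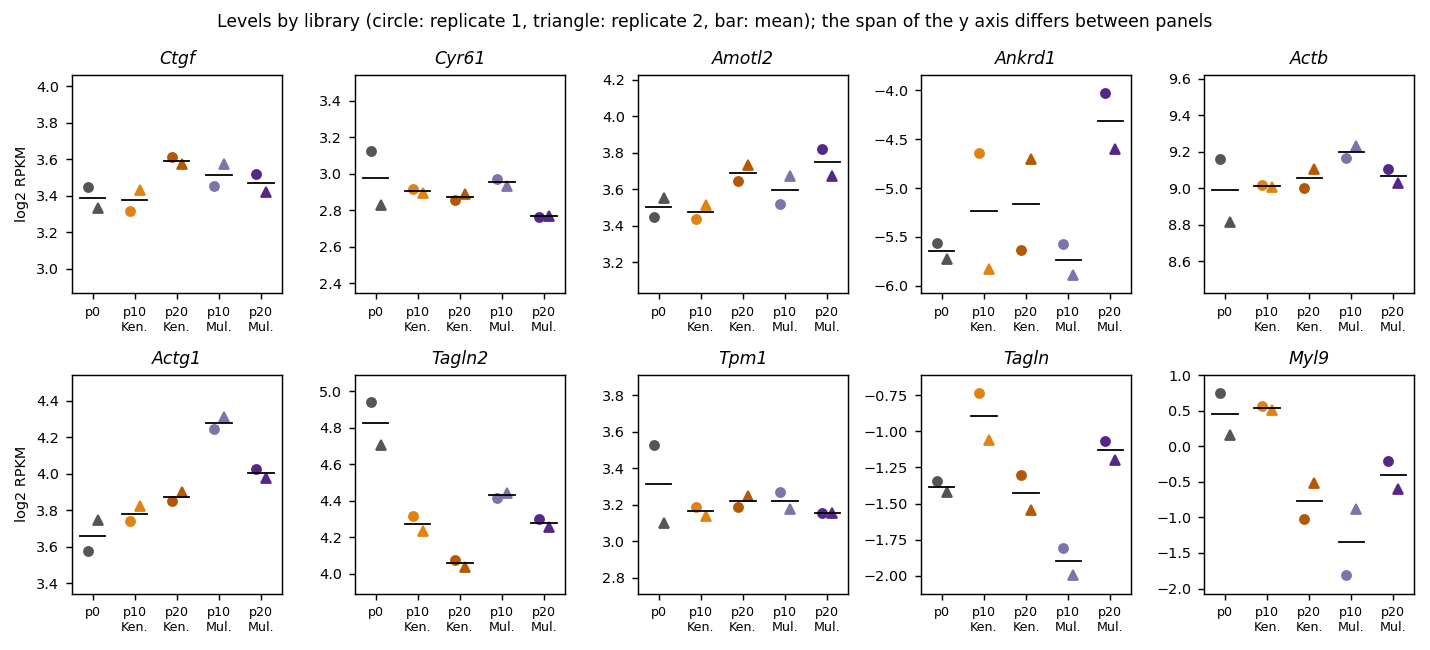
Level of each gene in the 10 libraries, as log2 RPKM on the y axis (its span differs between panels) and by group on the x axis, with circles for replicate 1, triangles for replicate 2 and a bar at the mean of the group. Actg1 was highest in p10 Mulas2019 (4.25 and 4.31) and Tagln2 in p0 (4.94 and 4.70).

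The comparison of the methods asks which of these genes differ between suspension and gelatin culture. With p10 and p20 pooled (4 libraries against 4), Actg1 and Tagln2 were lower in Keniry2022 and no gene was higher. A feature entered the test when 50% or more of its libraries had a log2 RPKM over 0, which 7 of the 10 genes did, and 2 of these 7 (28.6%) passed the threshold of an adjusted p of 0.05 in limma. Of all 11654 features tested, 51.5% passed, 25.9% as higher and 25.5% as lower. Their median log2 difference (Keniry2022 minus Mulas2019) was -0.09 and that of all features -0.003, while the median absolute difference was 0.09 for the 7 genes and 0.183 for all features. In bulk RNA, fewer cells that express a gene and less RNA per cell cannot be told apart.

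**Figure D2:**
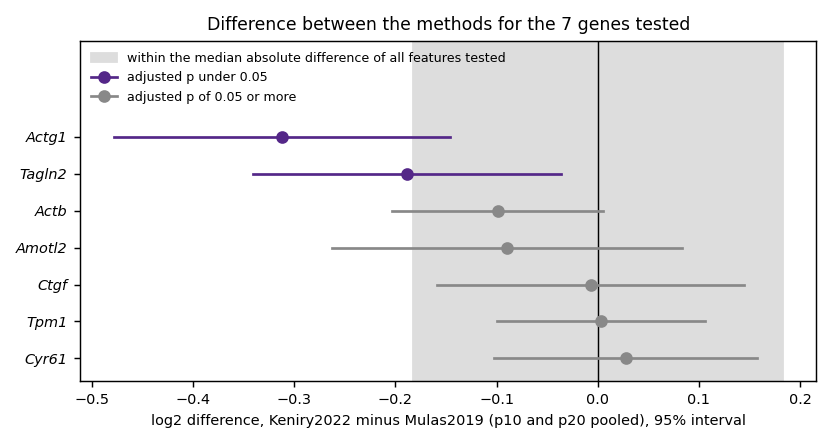
Log2 difference between Keniry2022 and Mulas2019 with passages pooled (x axis) for the 7 tested genes, with 95% intervals, purple for an adjusted p under 0.05 and a grey band for the median absolute difference of all features tested (0.183). Only Actg1 (-0.31) and Tagln2 (-0.19) are purple, and the intervals of the other 5 genes include 0.

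Actg1 (ENSMUSG00000062825, mm10 chr11:120345690-120348542, minus strand) encodes cytoplasmic gamma-actin and had the largest difference of the 7 tested genes. Its log2 RPKM was 3.58 and 3.74 in the p0 libraries, 3.74 and 3.82 in p10 Keniry2022, 3.85 and 3.90 in p20 Keniry2022, 4.25 and 4.31 in p10 Mulas2019, and 4.02 and 3.98 in p20 Mulas2019. All 4 Mulas2019 libraries lay above all 6 others, and Actg1 was the only 1 of the 10 genes whose methods did not overlap with passages pooled. Of all features tested, 46.5% did not overlap, 23.4% with Keniry2022 lower. The mean was 3.83 ± 0.07 (SD, n = 4) in Keniry2022 and 4.14 ± 0.16 (SD, n = 4) in Mulas2019, or geometric means of 14.2 and 17.6 RPKM. The log2 difference was -0.31 ± 0.0748 (SE; 95% interval -0.48 to -0.15, adjusted p = 0.00607), a 1.24-fold difference. It kept its direction and its call in all 19 alternatives, at -0.37 to -0.26.

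The order of the groups for Actg1 was p10 Mulas2019, p20 Mulas2019, p20 Keniry2022, p10 Keniry2022 and p0, and only the last pair of neighbours overlapped. Reads of Actg1 were 762 to 1592 per library. Of its 75-base windows, 33.5% also occur in transcripts of 10 other genes, among them the processed pseudogenes Gm12715 and Gm8399. Only exact matches to annotated transcripts were counted, so near matches and copies without annotation are not in this share. How reads with several alignments were counted is not given in the sources used here, so the level of Actg1 is uncertain to an unknown extent. The pseudogene Actg-ps1 itself had 0 to 3 reads.

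Actb (ENSMUSG00000029580, mm10 chr5:142903115-142906754, minus strand) encodes beta-actin, the other cytoplasmic actin. Its log2 RPKM was 9.16 and 8.82 in p0, 9.02 and 9.01 in p10 Keniry2022, 9.00 and 9.11 in p20 Keniry2022, 9.16 and 9.23 in p10 Mulas2019, and 9.11 and 9.03 in p20 Mulas2019. The p10 Mulas2019 libraries were the highest, and the p0 pair held both the lowest value and 1 of the higher values. The means were 9.03 ± 0.05 in Keniry2022 and 9.13 ± 0.09 in Mulas2019 (SD, n = 4), which are 524 and 561 RPKM. The log2 difference of -0.10 (95% interval -0.20 to 0.01, adjusted p = 0.103) did not pass, except with quantile normalisation (-0.20, adjusted p = 0.00364) and without p20 Mulas2019 replicate 2 (-0.13, adjusted p = 0.0284).

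The levels of the actins can be set against each other within a library. Per length, Actb exceeded Actg1 by 5.15 to 5.28 log2 units in the Keniry2022 libraries, by 4.92 to 5.08 in the Mulas2019 libraries, and by 5.59 and 5.07 in p0. The ratio of the methods' libraries did not overlap, while the p0 pair spanned both ranges in part. This ratio is given as a description and was not tested. Its size depends on how reads that Actg1 shares with pseudogenes were counted, which is not given.

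Tagln2 (ENSMUSG00000026547, mm10 chr1:172500047-172507380, plus strand) encodes transgelin 2, an actin-bundling protein of the calponin family. Its log2 RPKM was 4.94 and 4.70 in p0, 4.31 and 4.23 in p10 Keniry2022, 4.08 and 4.04 in p20 Keniry2022, 4.42 and 4.44 in p10 Mulas2019, and 4.30 and 4.25 in p20 Mulas2019. Both p0 libraries were above all 8 cultured libraries, which held for 13.2% of all features and for no other of the 10 genes. Between the methods the values overlapped, because p10 Keniry2022 overlapped p20 Mulas2019. The means were 4.17 ± 0.13 in Keniry2022 and 4.35 ± 0.09 in Mulas2019 (SD, n = 4).

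The log2 difference of Tagln2 was -0.19 ± 0.0685 (SE; 95% interval -0.34 to -0.04, adjusted p = 0.0407), a 1.14-fold difference. The call held in 8 of 19 alternatives, over which the difference was -0.24 to -0.15 and the adjusted p 0.00231 to 0.11. With the replicate number as a block, the adjusted p was 0.0543, and with the numbers of p20 Keniry2022 crossed it was 0.0538. Without p20 Keniry2022 replicate 1 or 2 it was 0.0982 or 0.11, without p10 Mulas2019 replicate 1 or 2 it was 0.0898 or 0.108, and without p20 Mulas2019 replicate 1 it was 0.0508.

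The matricellular proteins Ctgf and Cyr61 are the most used readouts of YAP, and neither differed detectably between the methods. Ctgf (mm10 chr10:24595442-24598683, plus strand), a secreted connective tissue growth factor, had mean log2 RPKM values of 3.39 ± 0.08 in p0, 3.37 ± 0.08 in p10 Keniry2022, 3.59 ± 0.03 in p20 Keniry2022, 3.51 ± 0.085 in p10 Mulas2019 and 3.47 ± 0.07 in p20 Mulas2019 (SD, n = 2). The p20 Keniry2022 libraries were the highest, without overlap with the next group, and the other 4 groups overlapped in order. Pooled by method, the means were 3.48 ± 0.14 and 3.49 ± 0.07 (SD, n = 4), and the log2 difference was -0.01 (95% interval -0.16 to 0.14, adjusted p = 0.940). The feature Gm15270 overlaps Ctgf on the opposite strand and shares 14.6% of its 75-base windows. It had 112 to 232 reads against 751 to 1029 for Ctgf, and a strand setting is not given in the sources used here, so reads of this pair cannot be told apart there.

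Cyr61 (ENSMUSG00000028195, mm10 chr3:145646971-145649985, minus strand), a secreted relative of Ctgf that binds integrins, had log2 RPKM values of 3.12 and 2.83 in p0, 2.91 and 2.89 in p10 Keniry2022, 2.85 and 2.89 in p20 Keniry2022, 2.97 and 2.94 in p10 Mulas2019, and 2.77 and 2.77 in p20 Mulas2019. The Mulas2019 passages stood at either end of the cultured groups, so the Keniry2022 values fell between them. The log2 difference between the methods was 0.03 (95% interval -0.10 to 0.16, adjusted p = 0.714). With passages pooled, differences beyond 0.16 in either direction lie outside the 95% interval for both matricellular genes. By passage the signs were opposite and the intervals wider. Ctgf differed by -0.14 at p10 (95% interval -0.35 to 0.08) and by 0.12 at p20 (-0.09 to 0.34). Cyr61 differed by -0.05 at p10 (-0.30 to 0.20) and by 0.11 at p20 (-0.14 to 0.35), and neither gene passed at either passage.

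Amotl2 (ENSMUSG00000032531, mm10 chr9:102716672-102733418, plus strand) encodes an angiomotin-like junction protein that binds YAP and restrains it, and is itself a YAP target. Its mean log2 RPKM was 3.50 ± 0.07 in p0, 3.47 ± 0.05 in p10 Keniry2022, 3.69 ± 0.06 in p20 Keniry2022, 3.60 ± 0.11 in p10 Mulas2019 and 3.75 ± 0.11 in p20 Mulas2019 (SD, n = 2). Under both methods the p20 mean was above the p10 mean, and all neighbouring groups in the order overlapped. The log2 difference between the methods was -0.09 (95% interval -0.26 to 0.08, adjusted p = 0.356).

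Tpm1 (ENSMUSG00000032366, mm10 chr9:67022590-67049406, minus strand), a tropomyosin that lies along actin filaments, was the most even of the genes in culture. Its log2 RPKM was 3.53 and 3.10 in p0 and 3.14 to 3.27 in all 8 cultured libraries. The pooled means were 3.19 ± 0.04 and 3.19 ± 0.06 (SD, n = 4), and the log2 difference was 0.00 (95% interval -0.10 to 0.11, adjusted p = 0.960). The p0 pair alone spanned more than all cultured libraries.

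Ankrd1, Tagln and Myl9 were too low to be tested. Reads were worked out from the log2 values, library totals and exon lengths, and at such counts the counting error is a large part of the spread. Ankrd1 (ENSMUSG00000024803, mm10 chr19:36111965-36119844, minus strand), a cardiac ankyrin repeat protein and a strong YAP target in adherent cells, had 0 and 0 reads in p0, 2 and 0 in p10 Keniry2022, 1 and 2 in p20 Keniry2022, 0 and 0 in p10 Mulas2019, and 3 and 2 in p20 Mulas2019. It was therefore at or below the 3 reads that a count of 0 allows in every library, and no fold is given.

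Tagln (mm10 chr9:45929628-45936058, minus strand), transgelin or SM22, an actin-binding protein typical of smooth muscle, had 15 and 16 reads in p0, 27 and 22 in p10 Keniry2022, 18 and 16 in p20 Keniry2022, 11 and 12 in p10 Mulas2019, and 21 and 19 in p20 Mulas2019. At p10 Keniry2022 was the higher method in both libraries, and at p20 it was the lower. Gm48529 and Pcsk7 lie on the opposite strand and share 53.3% of the 75-base windows of Tagln, and Pcsk7 had 296 to 409 reads, so part of these few reads may belong to them and their part was not tested.

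Myl9 (ENSMUSG00000067818, mm10 chr2:156775420-156781658, plus strand), a regulatory light chain of myosin II in contractile cells, had 47 and 35 reads in p0, 49 and 48 in p10 Keniry2022, 16 and 24 in p20 Keniry2022, 8 and 19 in p10 Mulas2019, and 28 and 21 in p20 Mulas2019. The p0 and p10 Keniry2022 libraries were all above the other 6. With no filter on low values, the pooled log2 difference was 0.76 for Myl9 (adjusted p = 0.32), 0.36 for Tagln (adjusted p = 0.436) and -0.18 for Ankrd1 (adjusted p = 0.77). With no filter at p10, where 4.01% of all 25965 features passed, Myl9 was higher in Keniry2022 by 1.90 (adjusted p = 0.0377) and Tagln by 1.01 (adjusted p = 0.029). At p20 the same differences were -0.37 (adjusted p = 0.832) and -0.30 (adjusted p = 0.528).

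**Figure D3:**
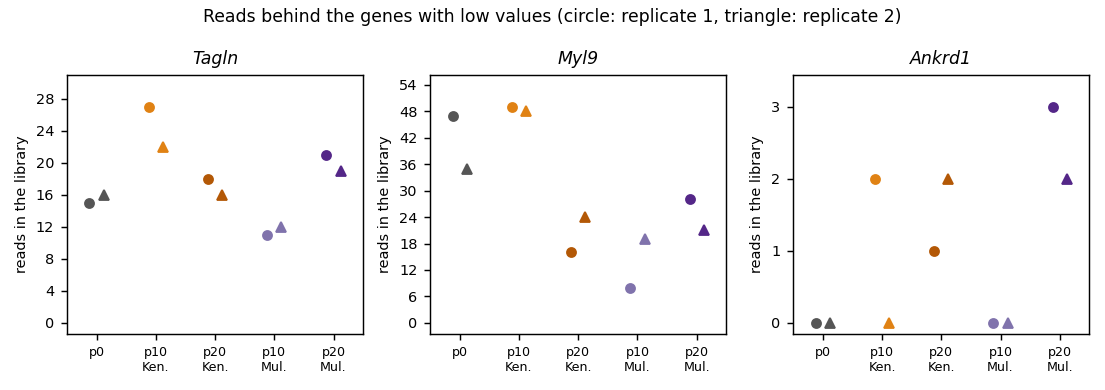
Reads per library (y axis, worked out from the deposited values) of Tagln, Myl9 and Ankrd1 by group, with circles for replicate 1 and triangles for replicate 2. Myl9 is highest in p10 Keniry2022 (49 and 48 reads) and p0 (47 and 35), and Ankrd1 does not exceed 3 reads.

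Passage-matched comparisons used 1 model of all 10 libraries. At p10, Actg1 was lower in Keniry2022 by a log2 difference of -0.50 ± 0.0878 (SE; 95% interval -0.70 to -0.29, adjusted p = 0.0185), a 1.41-fold difference, and it was the only 1 of the 7 tested genes to pass, where 8.53% of all features did. Without any 1 of the 4 p10 libraries, which leaves 1 library on a side that is assumed to vary like the rest, its adjusted p was 0.117 to 0.137. At p10, Tagln2 had a log2 difference of -0.16 (adjusted p = 0.334) and Actb of -0.18 (adjusted p = 0.36). In a model without the p0 libraries, 3 of the 7 genes passed at p10, all lower in Keniry2022, namely Actg1 (adjusted p = 0.000312), Actb (adjusted p = 0.0157) and Tagln2 (adjusted p = 0.0288), and 48.3% of all features did.

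At p20 none of the 7 genes passed in limma, 0 had an unadjusted p under 0.05 and voom also called 0, while 2.15% of all features passed. The largest difference was that of Tagln2 (-0.22 ± 0.0954, SE, adjusted p = 0.258), and Actg1 differed by -0.13 (adjusted p = 0.479). Without the p0 libraries, Tagln2 passed at p20 (adjusted p = 0.01, with 36.7% of all features passing) and Actg1 did not (adjusted p = 0.0877). The difference of Actg1 was smaller at p20 than at p10 by 0.37 log2 units, a term whose adjusted p was 1 (unadjusted p = 0.0182 in limma, 0.103 adjusted without p0), so the passages were not shown to differ. For this term 0 of the 7 genes and 0% of all features passed, 1 gene and 405 features had an unadjusted p under 0.05, and voom called 0 genes and 0 features.

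When days of culture rather than passages were matched (p20 Keniry2022 against p10 Mulas2019), Actg1 was lower by -0.40 (95% interval -0.61 to -0.20, adjusted p = 0.0397), a 1.32-fold difference. It was the only 1 of 7 to pass, where 6.43% of all features did. Its adjusted p was 0.0528 with the replicate number as a block and 0.0562 with the numbers of p20 Keniry2022 crossed. It did not pass when any single cultured library was left out, at log2 differences of -0.43 to -0.37. Tagln2 differed by -0.37 (adjusted p = 0.0604) and Actb by -0.14 (adjusted p = 0.518). Without the p0 libraries, Actg1 (adjusted p = 0.000982), Tagln2 (adjusted p = 0.00102) and Actb (adjusted p = 0.0462) all passed, with 43.4% of all features.

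The remaining question is how each method moved the genes from p0, and these comparisons share the same p0 libraries. Tagln2 was below p0 throughout: by -0.55 in p10 Keniry2022 (adjusted p = 0.0917), -0.77 in p20 Keniry2022 (95% interval -0.99 to -0.55, adjusted p = 0.0488, 1.70-fold), -0.39 in p10 Mulas2019 (adjusted p = 0.0237, 1.31-fold) and -0.55 in p20 Mulas2019 (adjusted p = 0.0143, 1.46-fold). It fell from 28.3 RPKM in p0 to 16.7 RPKM in p20 Keniry2022. With the replicate number as a block, the change in p20 Keniry2022 had an adjusted p of 0.0616, and 0.0522 with the numbers of that pair crossed. The change did not pass when any single cultured library was left out, at -0.79 to -0.75. Without p10 Mulas2019 replicate 1 or 2, the adjusted p of Tagln2 at p10 Mulas2019 was 0.12 or 0.11, and without p10 Keniry2022 replicate 1 it was 0.0501. Without p20 Mulas2019 replicate 1 or 2, that at p20 Mulas2019 was 0.107 or 0.0951.

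Actg1 rose from p0 in both Mulas2019 groups, from 12.6 to 19.4 RPKM at p10 (log2 difference 0.62, 95% interval 0.41 to 0.82, adjusted p = 0.00844, 1.53-fold) and by 0.34 at p20 (adjusted p = 0.03, 1.27-fold). The p10 value had an adjusted p of 0.0768 or 0.0686 without p10 Mulas2019 replicate 1 or 2, and the p20 value an adjusted p of 0.0582 to 0.155 without any single cultured library. In Keniry2022 it differed from p0 by 0.12 at p10 (adjusted p = 0.368) and 0.21 at p20 (adjusted p = 0.169). Counted over the 7 genes, 0 passed in p10 Keniry2022 (0.199% of all features, 1 gene at an unadjusted p under 0.05, and 0 genes by voom), 1 in p20 Keniry2022 (0.199%), 2 in p10 Mulas2019 (33.0%) and 2 in p20 Mulas2019 (29.3%). Of the others, Amotl2 was nearest to passing, at 0.25 in p20 Mulas2019 (adjusted p = 0.0843).

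**Figure D4:**
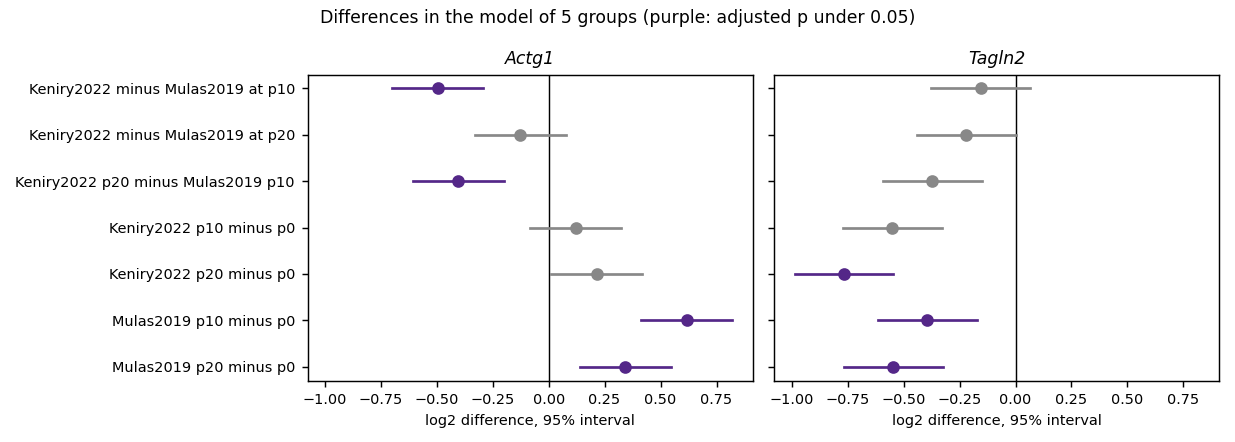
Log2 differences of Actg1 and Tagln2 (x axis) with 95% intervals in the 3 comparisons between the methods and the 4 against p0, with purple for an adjusted p under 0.05. Actg1 differed from p0 by 0.62 and 0.34 in Mulas2019, and Tagln2 lay below 0 in every comparison, down to -0.77.

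These values depended on which p0 library was used. Between p0 replicates 1 and 2, Myl9 differed by 0.59, Tpm1 by 0.43, Actb by 0.34, Cyr61 by 0.30 and Tagln2 by 0.24 log2 units, and Actg1 by -0.17. With p0 replicate 1 left out, Tagln2 was lower than p0 in p10 Keniry2022 (-0.43, adjusted p = 0.0183) and p20 Keniry2022 (-0.65, adjusted p = 0.0101), and Actb was higher in p10 Mulas2019 (0.38, adjusted p = 0.00249) and p20 Mulas2019 (0.25, adjusted p = 0.0135). The shares of all features passing were then 5.23%, 4.61%, 40.5% and 37.5% in p10 Keniry2022, p20 Keniry2022, p10 Mulas2019 and p20 Mulas2019.

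With p0 replicate 2 left out, the shares were 64.3%, 66.5%, 71.8% and 71.1%, and Actg1 was higher than p0 in p10 Keniry2022 as well (0.21, adjusted p = 0.0217) and in p20 Keniry2022 (0.30, adjusted p = 0.00346). In that setting Cyr61 and Tpm1 were lower than p0 in all 4 groups, by -0.36 to -0.17 for Cyr61 and by -0.37 to -0.30 for Tpm1, whereas without p0 replicate 1 neither passed in any group. Tagln2 and the rise of Actg1 in Mulas2019 passed with either p0 library alone, at -0.43 and -0.67 for Tagln2 in p20 Mulas2019 and at 0.53 and 0.70 for Actg1 in p10 Mulas2019. With no filter on low values, Myl9 was lower in p10 Mulas2019 than in p0 by -1.80 (adjusted p = 0.0318, with 9.35% of all features passing).

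The regulators of these genes were examined from fixed lists, with passages pooled, where 25.9% of all features were higher and 25.5% lower. In the model of 5 groups 2225 of 11561 features passed, and shares of all features under other scalings are not given here. Among 21 tested Hippo pathway kinases, adaptors and transcription factors, 3 were higher and 7 lower in Keniry2022, with a median log2 difference of -0.02, and 1 and 2 in the model of 5 groups. Tead4, a DNA-binding partner of YAP (0.36, adjusted p = 0.00657), the MST2 kinase gene Stk3 (0.25) and the Hippo pathway adaptor Mob1a (0.13) were higher. Amotl1, a relative of Amotl2 (-0.65, adjusted p = 8.99e-05), the kinase Lats1 (-0.49) and the scaffold Wwc1 (-0.38) were lower. YAP and TAZ themselves, named after their values were seen for their place in the pathway, differed by 0.03 (Yap1, adjusted p = 0.536) and -0.09 (Wwtr1, adjusted p = 0.371).

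Of 18 other YAP/TAZ targets in the table, 10 were tested, 1 was higher and 6 were lower (median -0.26), beside 25.9% and 25.5% of all features. Among the lower were Crim1 (-0.58, adjusted p = 0.00628), Arhgef17 (-0.50) and Nuak2 (-0.44), while Dock5 was higher (0.24). With quantile normalisation, 2 of the 10 were higher and 4 lower. In the model of 5 groups only 1 of the 10 passed, as lower, where 2225 of 11561 features passed. Crim1 and Nuak2 were themselves low, with 80 and 110 reads in their lowest library.

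SRF and its cofactors had 0 of 5 tested genes past the threshold in limma, 0 at an unadjusted p under 0.05 and 0 by voom. Named after their values were seen, Srf differed by 0.04 (adjusted p = 0.593), Mkl1 by -0.16 (adjusted p = 0.132) and Mkl2 by -0.06 (adjusted p = 0.478). Other SRF/MRTF cytoskeletal targets were 3 higher and 7 lower of 18 tested (median -0.08), or 4 higher and 5 lower with each library centred on its median and 1 and 3 in the model of 5 groups. Lower were the tropomyosin Tpm2 (-0.65, adjusted p = 0.00454), the fibronectin receptor subunit Itga5 (-0.56) and the non-muscle myosin heavy chain Myh9 (-0.36). Higher were the actin crosslinkers Actn4 (0.27, adjusted p = 0.00198) and Flna (0.17) and the calponin Cnn2 (0.26), and Actg2 had 0 reads in every library. Of the immediate early genes that SRF drives with TCF factors, 3 were tested and 0 passed in limma or voom, with 0 at an unadjusted p under 0.05 and 1 lower with quantile normalisation, while Egr2 had 0 reads in every library.

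Actin monomer and filament regulators were 13 higher and 3 lower of 30 tested (median 0.09). They were 6 and 6 with quantile normalisation and 2 and 2 in the model of 5 groups, where 2225 of 11561 features passed. Whether these counts moved more than those of all features was not tested. Tmsb4x, the thymosin that sequesters actin monomers (0.37, adjusted p = 0.00529), the membrane linker Msn (0.36) and the capping protein subunit Capza2 (0.34) were higher. Cap2, which recycles actin monomers (-1.15, adjusted p = 0.0045), the cofilin phosphatase Ssh2 (-0.45) and the filament-elongating Vasp (-0.28) were lower.

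Over all 7 pathway lists, 49 of 100 tested genes (each counted once) passed, near the 51.5% of all features. In the model of 5 groups 15 of the 100 passed, where 2225 of 11561 features did.

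**Figure D5:**
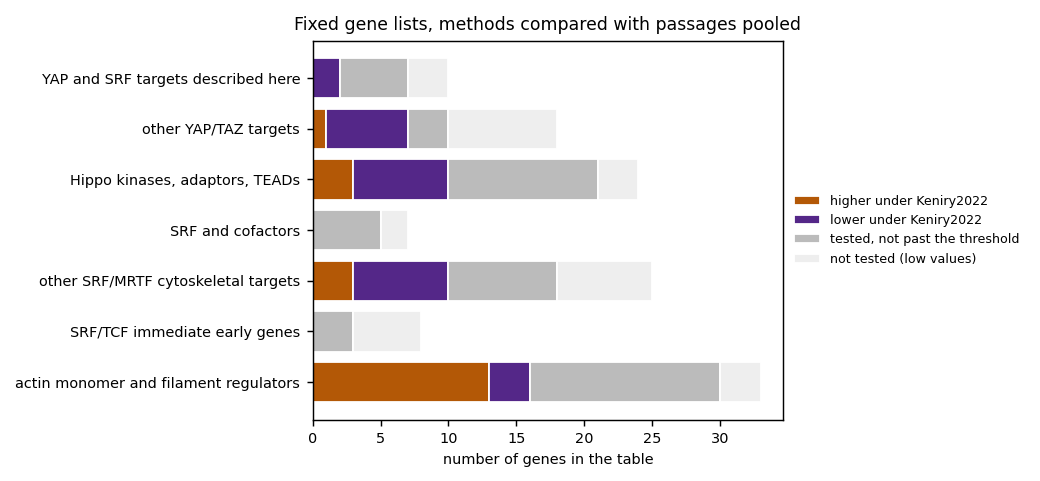
Number of genes (x axis) of the 10 genes described here and of 6 pathway lists that were higher in Keniry2022, lower, not past the threshold or not tested, with passages pooled. The list of other YAP/TAZ targets has 1 higher and 6 lower (2 and 4 with quantile normalisation), and the actin regulator list 13 higher and 3 lower (6 and 6 with quantile normalisation). Of all features tested, 25.9% were higher and 25.5% lower with passages pooled. In the model of 5 groups, these lists had 0 higher and 1 lower, and 2 and 2.

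Markers of cell identity were read against the same shares of all features (51.5% passing, 25.9% as higher and 25.5% as lower). Of 8 mESC markers, 4 were higher in Keniry2022, among them Pou5f1 (0.40, adjusted p = 0.000192), Zfp42 (0.30) and Nanog (0.18), and Klf4 was lower (-0.40), and with quantile normalisation 2 were higher and 3 lower. All 4 tested trophoblast markers were lower, including Krt18 (-1.13, adjusted p = 0.000381), Krt19 (-0.96) and Eomes (-0.40). The summed level of 10 trophoblast markers was 25.7 to 29.5 RPKM in Keniry2022, 32.7 to 39.4 in Mulas2019 and 25 to 27.4 in p0. Mulas2019 was highest in this order, as it was for Actg1. Krt18, Krt19 and Eomes were a small part of this sum, at mean log2 RPKM of 0.9958, 0.8712 and 1.3703 in Mulas2019. Most of the sum came from other markers of the list, whose levels are not given here. Whether its order reflects trophoblast cells was not tested. Of 3 tested endoderm markers, Col4a1 (-0.69) and Lama1 (-0.68) were lower. The summed level over 11 markers was 93.6 to 111 RPKM in Keniry2022, 95.8 to 118 in Mulas2019 and 113 to 125 in p0. Col4a1 and Lama1 were a small part of it, at mean log2 RPKM of 2.55 and 2.42 in Mulas2019, and Sparc was the only other endoderm marker tested. Of 2 tested smooth muscle markers 0 passed in limma or voom, with 0 at an unadjusted p under 0.05, and that list summed to 4.66 to 5.87 RPKM in all libraries. The part of such cells in the values of Actg1 and Tagln2 was not tested.

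Among the 6193 features with a mean log2 RPKM of at least 3, those most like Actg1 over the 10 libraries were Kdm6b, a histone demethylase (Pearson r = 0.976), and Atxn2, an RNA-binding protein (r = 0.973). Those most like Tagln2 were 2410006H16Rik (r = 0.948) and Prmt7, an arginine methyltransferase (r = 0.946). These r values describe 10 libraries that share 2 lines and a few groups, and they say nothing of shared control.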

How the data were processed

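RNA was sequenced as single-end 75-base reads, trimmed with trim_galore and mapped to mm10. The study names HISAT2 as the aligner, whereas TopHat2 2.0.12 stands in the processing notes of the submitters, and the choice between them could not be settled. The authors quantified features in SeqMonk and deposited 1 table of log2 values. The table is named as logCPM and the study describes RPM, but the values of features without reads depend on exon length, so the unit is log2 RPKM, with 0 reads entered as 0.9 reads. The annotation release, the strand setting and the treatment of reads with several alignments are not given in these sources. All columns were used.

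Library totals and exon lengths were worked out from these floors or by a search for lengths that make all values whole, and 100% of values were then whole within 0.1 reads. Since the search looks for whole reads, this is no check of it, and for 3405 features several lengths were possible. The deposited values were tested with limma 3.58.1 under R 4.3.3 (intensity trend, two-sided, Benjamini-Hochberg adjustment over all features tested), as voom was used by the authors on counts. The pooled comparison used 8 libraries with no block, and all others used 1 model of 10 libraries in 5 groups. The study split each line between the methods, but does not state which library numbers belong to which line. Deviations of same-numbered libraries from the group means correlated at 0.17 to 0.63 between groups other than p20 Keniry2022. With p20 Keniry2022 they correlated at -0.70 to -0.12, as its Y-linked reads were also reversed. A replicate block was therefore also fitted with the numbers of that pair crossed. Windows shared between genes were counted in the transcripts of GENCODE vM21 (mm10).

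The 10 genes and all lists were chosen with earlier results of these data known. Named were the 10 genes, up to 3 genes higher and 3 lower of each list with the largest difference among those passing with passages pooled, and the 2 features most like each of the 10 that passed. The values of 1 of the 7 pathway lists are not reported here, beyond its part in the count over all 7. The limit of 3 reads that a count of 0 allows covers counting error only, and the 95% intervals of log2 differences are those of limma. Alternatives were other filters, scalings, weights, models, a pseudocount, voom on the recovered reads and leaving out each library.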

Additional observations from a re-analysis of the deposited data

Results flagged for a closer look

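Of 20 groups of 4 libraries examined (each of the 10 genes under each method), 1 held a library far from the other 3. In Keniry2022, Actb stood at 9.11 log2 RPKM in p20 replicate 2 and at 9.00 to 9.02 in the other 3 libraries. Chance sets apart about 1 in 20 such groups.

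Tagln moved in opposite directions at the 2 passages. Keniry2022 minus Mulas2019 was 1.01 log2 units at p10 and -0.30 at p20, and the methods did not overlap at either passage. The share of all features without overlap at a single passage is not given here. Tagln was too low for the filtered fit. With no filter, the difference between the passages was -1.30 (unadjusted p = 0.000962, adjusted p = 0.40 in limma), so it did not pass. The counts behind it were 11 to 27 reads per library, and the part of the overlapping features Pcsk7 and Gm48529 was not tested. Ctgf and Cyr61 were also lower in Keniry2022 at p10 and higher at p20, but neither passed at either passage (adjusted p 0.379 to 0.803 in limma). Their differences between the passages did not pass in limma.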

How the results depend on the processing

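Over the alternatives, 1092 of 1225 single-gene values kept their direction and side of the threshold, 59 lost and 40 gained a call, and 34 changed sign, none of them called (lowest adjusted p 0.061). With passages pooled, 2 genes passed, but 1 with no filter, median centring, library quality weights, the replicate block (crossed or not) or the model of 5 groups, and 1 to 3 leaving out each library. At p10, 1 passed, but 3 with no filter, weights or 4 groups without p0, and 0 to 3 leaving out libraries. At p20, 0 passed, but 1 with weights or without p0, and 0 to 1 leaving out libraries. With days matched, 1 passed, but 0 with no filter or either block, 2 with quantile normalisation or weights, 3 without p0, and 0 to 3 leaving out libraries. Against p0, p10 Keniry2022 had 0 (0 to 4 leaving out libraries), p20 Keniry2022 had 1 (0 with the stricter filter of log2 over 2, voom, weights or either block, 0 to 5 leaving out libraries), p10 Mulas2019 had 2 (0 with weights, 0 to 4 leaving out libraries) and p20 Mulas2019 had 2 (1 with no filter, 0 with weights, 0 to 5 leaving out libraries). The counts of 4 and 5 came without p0 replicate 2. The replicate block changed no other call of these genes. The pathway lists had 49 genes passing, but 15 in the model of 5 groups, and 40 to 47 leaving out libraries. Over all features, 6000 passed with passages pooled but 2225 in the model of 5 groups, 986, 249 and 743 passed at p10, p20 and matched days but 5631, 4280 and 5060 without p0, and 145 passed at p20 with the block. With days matched, 511 features passed with the block. Against p0, 23 features passed in each Keniry2022 group, but 0 in either by voom. With the block, 0 passed in p10 Keniry2022 and 1 in p20 Keniry2022. Where no count of all features stands beside an alternative, it is not given here. The cause of these changes was not tested.

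Median centring turned the sign of Ctgf pooled (0.0058), Actb at p20 (0.0043) and Actb in p10 Keniry2022 against p0 (-0.0095). Leaving out 1 library turned the sign of values near 0, with these ranges. Pooled, Ctgf was -0.0496 to 0.0486, Cyr61 -0.0039 to 0.0651 and Tpm1 -0.016 to 0.0309. At p20, Amotl2 was -0.1314 to 0.0174 and Actb -0.0657 to 0.039. With days matched, Tpm1 was -0.0519 to 0.0452, and for the change of the method difference between passages Amotl2 was -0.0092 to 0.1402. Against p0, p10 Keniry2022 gave Ctgf -0.0741 to 0.0433, Cyr61 -0.219 to 0.077, Amotl2 -0.079 to 0.0259, Actb -0.1481 to 0.1965 and Tpm1 -0.3629 to 0.0643. There, p20 Keniry2022 gave Cyr61 -0.2512 to 0.0448, Actb -0.1066 to 0.238 and Tpm1 -0.3067 to 0.1205. For p10 Mulas2019, Cyr61 was -0.169 to 0.127 and Tpm1 -0.3033 to 0.1239, and for p20 Mulas2019, Actb was -0.0932 to 0.2514 and Tpm1 -0.3726 to 0.0546. Those of Actb, Cyr61 and Tpm1 against p0 turned on p0 replicate 1 or 2. The edgeR test on recovered reads was not run. Depth limits Ankrd1, Tagln and Myl9, at 0 to 49 reads per library.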
